A study of Mus musculus with 6 samples.

Results

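Glycolysis and the tricarboxylic acid cycle are described here through 36 enzymes and transporters chosen by name, 19 of glycolysis and 17 of the cycle and the steps that feed it, and the groups are reported apart. The table of normalized read counts held 35 of them among 25353 genes. Eno2 was not analysed here, which left 18 glycolysis members and 17 cycle members. All 35 passed the filter on low values (a value of at least 1 in 3 libraries), as did 18762 genes in all.

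RNA was measured in germinal vesicle (GV) oocytes of C57BL/6J mice, which are oocytes still arrested before the first meiotic division. The 3 WT and 3 KO libraries each came from 5 pooled oocytes of mice that the series design and the protocol give as 8 weeks old, although their age is labelled P1. The series title and design name Mfn2 as the deleted gene, whereas the protocol and the genotype labels name Mfn1, so the second group is called the libraries labelled KO. Neither the allele nor any Cre driver was stated, and no label ties a pool to a mouse of its own, so p-values measure only the spread between these pooled samples.

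Glycolysis splits glucose to pyruvate in the cytosol, and the cycle oxidises the acetyl group made from pyruvate in the mitochondrial matrix. Mouse oocytes are known for poor use of glucose and for taking up pyruvate supplied by the surrounding cumulus cells. Mitofusins, the products of Mfn1 and Mfn2, fuse the outer membranes of mitochondria.

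The reads recovered from the normalized counts, summed over genes, were 6450191 to 7992598 per library, with 19481 to 20102 genes detected. The sequencing depth itself is not known here. Mfn2 had normalized read counts of 25.5, 38.1 and 32.3 in WT and of 5.25, 5.28 and 4.5 in KO replicates 1 to 3, a log2 fold change of -2.44 (SE 0.38, limma adjusted p = 0.00487). Mfn1 had 298 to 363 in WT and 379 to 398 in KO (log2 fold change 0.19, SE 0.13, adjusted p = 0.482). All 12 oocyte markers were detected, and their sum was 23150 to 28305 in WT and 17702 to 25479 in KO, lowest in KO replicate 1; such sums are in CPM, that is, relative to all recovered reads of the library. The oocyte sums of the groups overlapped. The oocyte marker Nlrp5 was called lower in KO (log2 fold change -0.80, SE 0.21, limma adjusted p = 0.0458). An unadjusted limma p under 0.05 was found for 6 of the 12, including Zp1, Zp2 and Zp3 at -0.61 to -0.67, against 18% of all genes. Of the 12, 8 had a log2 fold change below 0, while Gdf9 (0.11), Bmp15 (0.06), Figla (0.09) and Nobox (0.22) were above it. The 14 granulosa and cumulus markers summed to 406 to 495 CPM in WT and 396 to 492 in KO. Reads in every library were found for 11, among them Inha (28.4 to 171 normalized counts, highest in WT replicate 1) and Fshr (5.54 to 24.3). Foxl2 and Amh were each at 0 in 4 of the 6 libraries. Cyp19a1 had 363 to 445 in WT and 301 to 336 in KO (log2 fold change -0.36, SE 0.13, limma adjusted p = 0.137). Of the 11 granulosa and cumulus markers tested, 7 had a log2 fold change below 0 and 0 were called. Of 9 theca and stroma markers, 6 were in the table; they summed to 94.7, 6.43 and 14.8 CPM in WT and to 1.67 to 2.41 in KO, and 2 of the 3 tested, Cyp11a1 and Dcn, were called lower. Immune markers summed to 48.4 to 61 CPM in WT and 66.2 to 86.7 in KO, nearly all from C1qb. Cd74 and Lyz2 were at 0 in every KO library and in WT replicate 2. Endothelial markers summed to 22.7 to 27.9 CPM in WT and 22.3 to 33.4 in KO, mostly from Pecam1 (log2 fold change 0.05). Kdr had 8.37 to 11.1 normalized counts in WT and 2.11 to 3.15 in KO (-1.57, SE 0.49, limma adjusted p = 0.0885). Tie1 went the other way (0.90, SE 0.47, adjusted p = 0.328). The markers called were thus Nlrp5, Cyp11a1 and Dcn, all lower in KO. Each lost its call when a single library was left out. Without WT replicate 1 the limma adjusted p was 0.222 for Nlrp5 and 0.149 for Dcn. Without KO replicate 3 it was 0.108 for Cyp11a1. Other markers were not called, though the stroma and immune sums of the groups did not overlap. The part of these differences in the members' values was not tested.

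No member passed the test. With limma on log2(value + 1), 0 of 18 glycolysis members and 0 of 17 cycle members had an adjusted p under 0.05, against 3.28% of all genes tested (1.87% higher and 1.41% lower in KO). edgeR and DESeq2 on the recovered reads also called 0 members, where they called 6.03% and 7.79% of the genes they tested. They tested fewer genes, 13078 and 11098, so members with few reads may not have been tested. DESeq2 gave Pfkfb2 no adjusted p. At an unadjusted limma p under 0.05 there were 1 glycolysis member, Pfkfb2, and 3 cycle members, Mdh2, Idh3g and Mdh1, against 18% of all genes. The median log2 fold change was -0.15 over the glycolysis members and -0.04 over the cycle members, beside -0.01 over all genes tested. Values were below 0 for 11 of 18 and 10 of 17 members, and for 51.3% of all genes. The 95% interval of the difference lay within 2-fold either way for 11 glycolysis and 14 cycle members, and for 52.1% of all genes. It lay within 1.5-fold for 4 glycolysis and 12 cycle members. For the other members a 2-fold difference in at least 1 direction was not excluded.

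**Figure D1:**
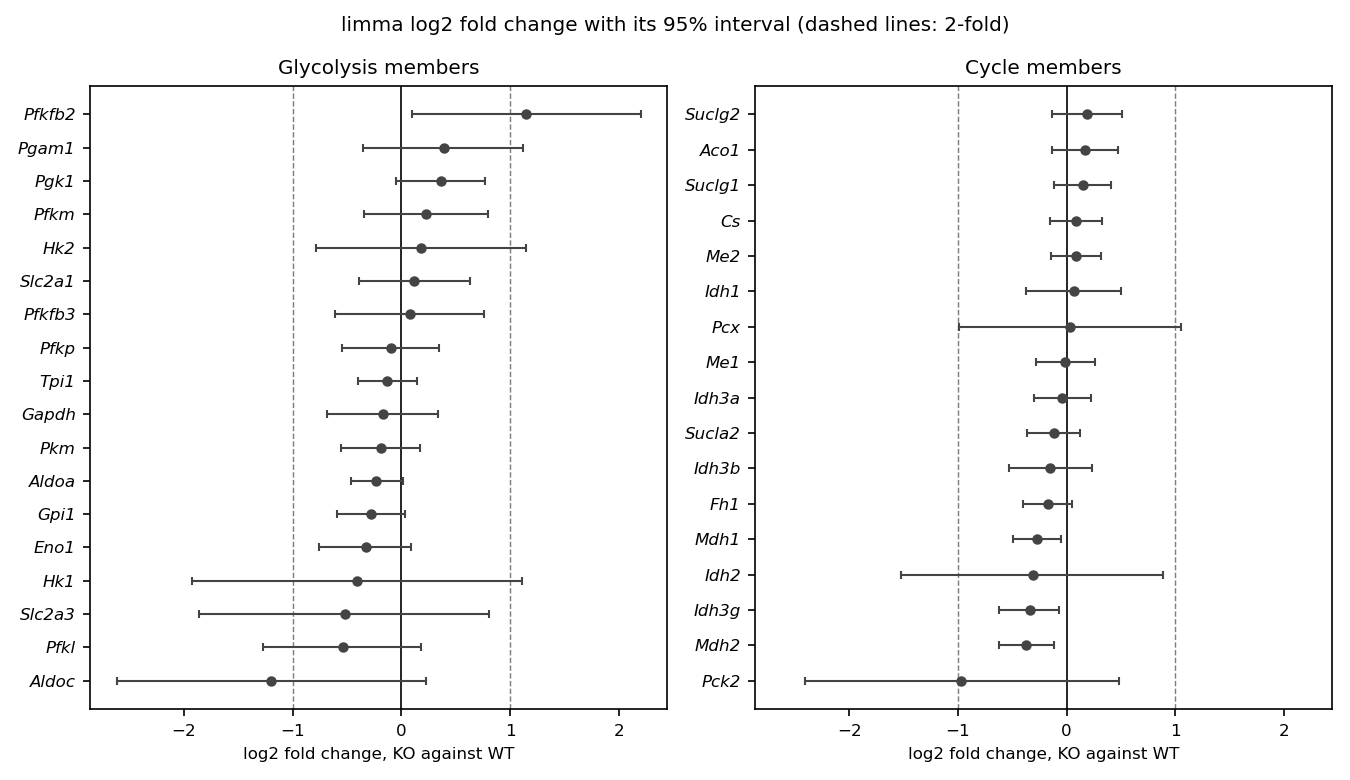
log2 fold change (KO against WT, x axis) of each member with its 95% interval from limma, glycolysis on the left and the cycle on the right, each ordered by size; dashed lines mark 2-fold. The widest intervals belong to members with few reads, such as Aldoc, Hk1 and Pck2, and most cycle members lie close to 0.

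As counted, the cycle members had higher levels per length than the glycolysis members. Levels per length, in CPM per kilobase of transcript, had a median over members of 34.3 for the cycle and 2.84 for glycolysis. Of the cycle members 12 of 17 had a mean level of at least 10, as had 6 of the 18 glycolysis members, and a mean below 1 was found for 3 and 6 members. The levels summed over the cycle members were 889, 784 and 863 in WT and 743, 831 and 819 in KO replicates 1 to 3. Over the glycolysis members they summed to 350, 290 and 311 in WT and to 252, 309 and 332 in KO. In both groups KO replicate 1 had the lowest sum, WT replicate 1 the highest, and the remaining libraries overlapped. For 7 glycolysis members and 2 cycle members, at least 20% of the transcript was shared with another annotated gene, as described below. How reads from shared stretches were counted is unknown, so these rows may not give the levels of their genes. The effect of this on the comparison of glycolysis with the cycle was not tested.

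**Figure D2:**
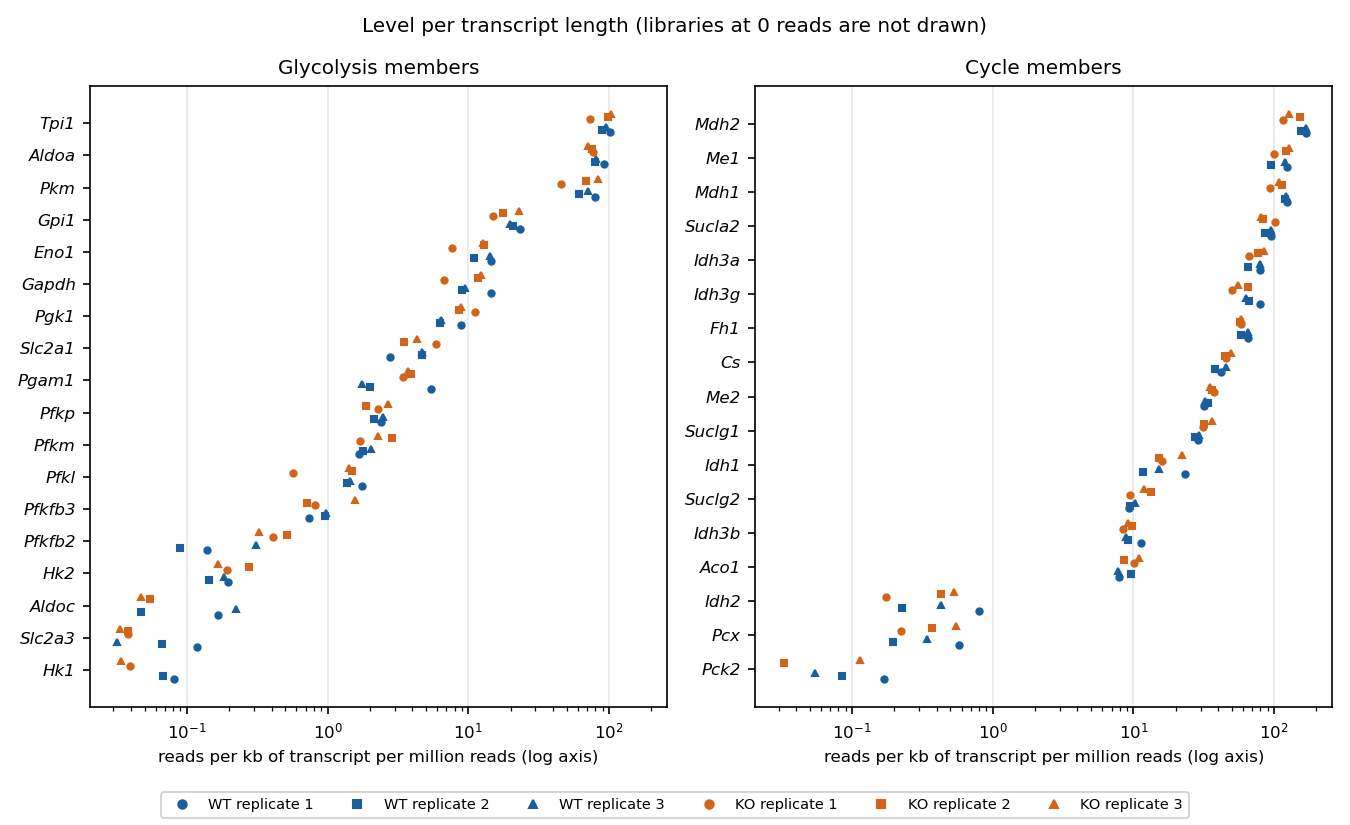
Level per transcript length (CPM per kilobase of transcript, log axis) of each member in each of the 6 libraries, WT in blue and KO in orange, with replicates by marker. Mdh2 stands highest at 116 to 168, and Hk1 and Slc2a3 lie lowest, below 0.12 in every library.

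The cycle members with the smallest p-values had lower values in KO, although none passed the test. Mdh2, the mitochondrial malate dehydrogenase that closes the cycle (chr5:135778480-135790398, plus strand, GRCm38), had normalized counts of 1748, 1602 and 1810 in WT and of 1171, 1569 and 1277 in KO. Every KO library lay below every WT library, and KO replicate 2 came close to the lowest WT value. Mdh2 had a log2 fold change of -0.37 (SE 0.12, 95% interval from 0.651-fold to 0.92-fold, limma adjusted p = 0.0977). Mdh1, the cytosolic malate dehydrogenase of the malate-aspartate shuttle (chr11:21556787-21572367, minus strand), had 1879, 1785 and 1913 in WT and 1377, 1674 and 1586 in KO. These values did not overlap either, and KO replicate 1 was again the lowest (log2 fold change -0.27, SE 0.11, adjusted p = 0.183). Idh3g, a regulatory subunit of the NAD-dependent isocitrate dehydrogenase (chrX:73778963-73786897, minus strand), had 754, 628 and 621 in WT and 464, 606 and 509 in KO. Its groups were separate by a small margin (log2 fold change -0.34, SE 0.13, adjusted p = 0.164). Fh1, the fumarase that makes malate from fumarate (chr1:175600374-175625635, minus strand), had 1224, 1079 and 1263 in WT and 1057, 1050 and 1047 in KO. The KO values were nearly equal and all below WT, with a log2 fold change of -0.17 (SE 0.11, adjusted p = 0.419).

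These 4 members were those of the cycle whose KO values all lay below their WT values, and 1 member, Suclg1, had the opposite order, where 11.7% of all genes tested were separated downwards and 11.5% upwards. Suclg1, the alpha subunit shared by both forms of succinyl-CoA ligase, had 315, 298 and 326 in WT and 329, 335 and 377 in KO (log2 fold change 0.15, SE 0.13, adjusted p = 0.601). None of the transcript of Mdh1, Mdh2, Idh3g or Fh1 was shared with another annotated gene in windows of 75 bases with up to 1 mismatch. Of the overlapping genes on the opposite strand, Mdh1 has Wdpcp and Fh1 has Kmo, and the libraries kept no strand.

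The promoters of the 3 members with the smallest p-values are shown because these members came closest to the threshold in the cycle. Each spans the start of the gene in RefSeq on GRCm38.p6 and lies mostly upstream of it. That start is the same as in the deposited table for Idh3g but lies further into the gene for Mdh2 (by 169 bases) and Mdh1 (by 433 bases). Capitals mark matches on either strand to GGGCGG (GC box), ACGTG (core of the hypoxia response element) and CCAAT (known by its letters); no string contains another.
Mdh2 (chr5:135778399-135778698, plus strand): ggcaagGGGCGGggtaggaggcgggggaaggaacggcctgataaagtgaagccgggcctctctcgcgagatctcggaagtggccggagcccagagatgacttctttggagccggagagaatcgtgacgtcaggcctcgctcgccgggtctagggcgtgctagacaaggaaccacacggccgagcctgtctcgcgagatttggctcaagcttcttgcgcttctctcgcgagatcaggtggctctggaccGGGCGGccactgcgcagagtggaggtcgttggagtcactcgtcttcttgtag
Mdh1 (chr11:21571885-21572184, minus strand): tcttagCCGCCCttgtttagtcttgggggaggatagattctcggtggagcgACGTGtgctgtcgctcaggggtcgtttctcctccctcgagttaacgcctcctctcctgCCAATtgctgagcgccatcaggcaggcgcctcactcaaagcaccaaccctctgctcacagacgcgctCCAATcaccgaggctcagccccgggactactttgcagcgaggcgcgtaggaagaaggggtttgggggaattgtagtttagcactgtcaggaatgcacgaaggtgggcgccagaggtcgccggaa
Idh3g (chrX:73786848-73787147, minus strand): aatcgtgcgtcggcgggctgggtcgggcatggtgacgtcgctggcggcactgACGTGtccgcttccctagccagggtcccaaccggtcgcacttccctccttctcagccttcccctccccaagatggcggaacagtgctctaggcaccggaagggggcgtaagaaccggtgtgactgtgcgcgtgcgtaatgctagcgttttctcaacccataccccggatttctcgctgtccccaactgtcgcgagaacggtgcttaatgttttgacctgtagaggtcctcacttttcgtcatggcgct

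The Mdh2 promoter held 2 GC boxes, the Mdh1 promoter held 1 GC box, 1 hypoxia core and 2 CCAAT boxes, and the Idh3g promoter held 1 hypoxia core. No string searched was found in all 3. The promoter table covered 32 of the members with 48 promoters. A GC box was found in 62.5% of those and in 35.7% of all 32851 promoters, the hypoxia core in 41.7% and 19.6%, and the CCAAT box in 45.8% and 37.4%. Such matches describe letters in a window and are not sites shown to be bound.

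**Figure D3:**
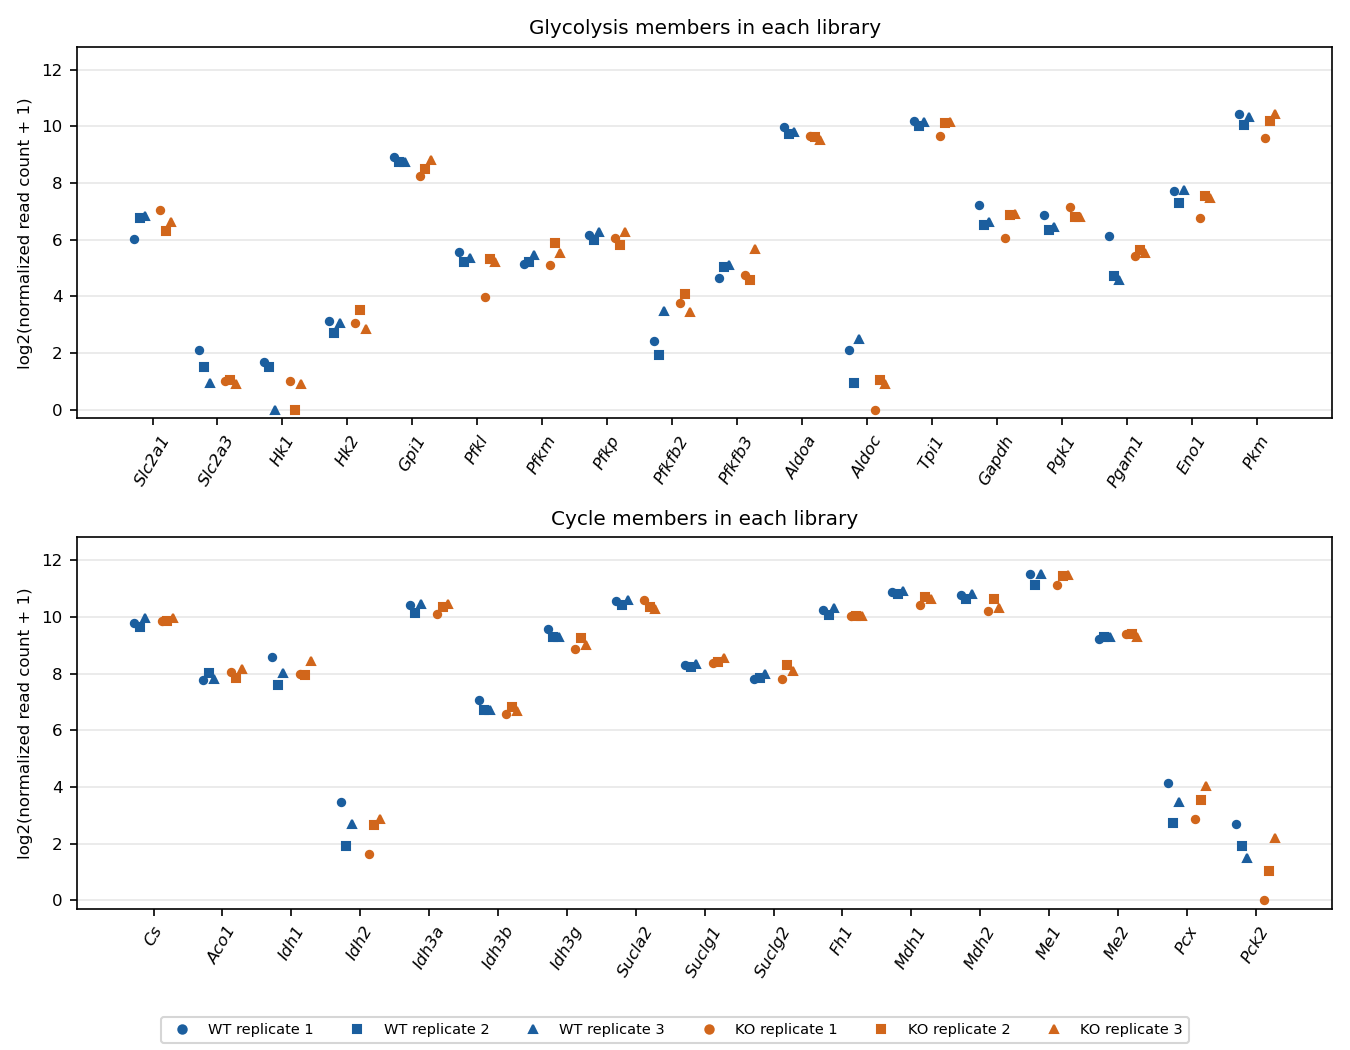
log2(normalized read count + 1) of each member (x axis) in each of the 6 libraries, glycolysis above and the cycle below, WT in blue and KO in orange. For most members the points of both groups interleave; Mdh2, Mdh1, Idh3g, Fh1 and Aldoa have all KO points under all WT points, and Suclg1 has them above.

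The entry steps of the cycle had similar values in both groups. Cs, the citrate synthase that joins acetyl-CoA to oxaloacetate, had 881, 791 and 987 in WT and 918, 914 and 996 in KO (log2 fold change 0.09, SE 0.11, adjusted p = 0.731). Its interval ran from 0.903-fold to 1.26-fold. Aco1, the cytosolic aconitase that also binds iron-responsive RNA elements, had 217 to 260 in WT and 231 to 288 in KO (0.17, SE 0.14, adjusted p = 0.591). The catalytic subunit of the NAD-dependent isocitrate dehydrogenase, Idh3a, had 1367, 1116 and 1411 in WT and 1099, 1292 and 1390 in KO, which overlap throughout (-0.04, SE 0.12, adjusted p = 0.903). Idh3b, another regulatory subunit, had 105 to 132 in WT and 94.5 to 111 in KO (-0.15, SE 0.18, adjusted p = 0.725).

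Of the NADP-dependent isocitrate dehydrogenases, the cytosolic Idh1 had 380, 192 and 259 in WT and 254, 246 and 348 in KO, with WT replicates 1 and 2 at the extremes (log2 fold change 0.07, SE 0.21, limma adjusted p = 0.905). The mitochondrial Idh2 had fewer than 10 reads in every library, with 9, 3 and 6 reads in WT and 2, 5 and 7 in KO, and the groups overlapped. Sucla2, the ADP-forming beta subunit of succinyl-CoA ligase, had 1521, 1355 and 1557 in WT and 1550, 1306 and 1226 in KO (-0.12, SE 0.11, adjusted p = 0.633). Suclg2, the GDP-forming beta subunit, had 223 to 253 in WT and 221 to 313 in KO (0.19, SE 0.15, adjusted p = 0.565).

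Enzymes that feed or drain the cycle differed widely in level. Me1, the cytosolic malic enzyme that turns malate to pyruvate and makes NADPH (chr9:86581371-86695953, minus strand), had 2887, 2216 and 2905 in WT and 2253, 2806 and 2869 in KO. These overlap, and the log2 fold change was -0.01 (SE 0.13, 95% interval from 0.824-fold to 1.19-fold, adjusted p = 0.977). Its mitochondrial relative Me2 had 594 to 632 in WT and 629 to 678 in KO (0.09, SE 0.11, adjusted p = 0.734). Pcx, the pyruvate carboxylase that replenishes oxaloacetate, had 5.58 to 16.6 in WT and 6.3 to 15.3 in KO (0.03, SE 0.48, adjusted p = 0.986). Pck2, the mitochondrial phosphoenolpyruvate carboxykinase, had 5, 3 and 2 reads in WT and 0, 1 and 4 in KO, too few to compare.

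Of the members at the first steps of glycolysis, Slc2a3, Hk1 and Hk2 had low values in all 6 libraries. Slc2a1, a widely expressed glucose transporter (chr4:119108711-119137983, plus strand), had normalized counts of 64.3, 108 and 114 in WT and of 132, 79.2 and 97.1 in KO, which overlap (log2 fold change 0.12, SE 0.24, limma adjusted p = 0.847). Slc2a3, a high-affinity glucose transporter, had 3, 2 and 1 reads in WT and 1 read in each KO library. Hk1, the hexokinase of most tissues, had 2, 2 and 0 reads in WT and 1, 0 and 1 in KO. With counting error alone, 0 reads are compatible with a true value of up to 3 reads (0.375 to 0.465 CPM). Hk2, the hexokinase of muscle and many growing cells, had normalized counts of 5.58 to 7.76 in WT and 6.29 to 10.6 in KO (0.18, SE 0.46, adjusted p = 0.884). Adpgk, an ADP-dependent glucokinase that is no member, had 186 to 223 in WT and 214 to 227 in KO (0.13, SE 0.14, adjusted p = 0.694). Both hexokinases together were covered by few reads, and a 2-fold difference of either lay inside its interval.

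Gpi1, the isomerase that makes fructose phosphate from glucose phosphate, came next in the pathway and had far higher counts. They were 481, 424 and 424 in WT and 301, 356 and 451 in KO, where KO replicate 3 lay inside the WT range and the other KO libraries below it. The log2 fold change was -0.28 (SE 0.15, adjusted p = 0.334). Without KO replicate 3 it had the smallest adjusted p of any glycolysis member in any setting, 0.128.

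Phosphofructokinase commits sugar to glycolysis and is built from the subunits Pfkl, Pfkm and Pfkp. Pfkl, the liver type, had 46.6, 36.3 and 39.7 in WT and 14.7, 39.1 and 36 in KO, where KO replicate 1 alone stood low (-0.54, SE 0.34, adjusted p = 0.438). Pfkm, the muscle type, had 34.4, 36.3 and 43.4 in WT and 33.6, 58.1 and 45 in KO (0.23, SE 0.27, adjusted p = 0.724). The platelet type Pfkp had 63.2 to 75.7 in WT and 54.9 to 76.4 in KO (-0.10, SE 0.21, adjusted p = 0.855).

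Pfkfb2 and Pfkfb3 code for bifunctional enzymes that make and remove a fructose bisphosphate that activates phosphofructokinase. It is not the fructose bisphosphate that aldolase splits. Pfkfb2 (chr1:130689182-130729253, minus strand) had the smallest p of the glycolysis members, with normalized counts of 4.44, 2.79 and 10.2 in WT and 12.6, 15.8 and 9.89 in KO. KO replicate 3 lay below WT replicate 3, so the groups overlapped. Its log2 fold change of 1.15 had an interval that excluded 0 (SE 0.50, 95% interval from 1.07-fold to 4.58-fold, limma adjusted p = 0.231). Windows shared with the overlapping gene Gm29427 on the same strand made up 24.6% of its transcript, and reads from both cannot be told apart there. Yod1 on the opposite strand and Gm37163 on the same strand also overlap Pfkfb2, and the libraries kept no strand. Pfkfb3 had 24.4 to 33.2 in WT and 23.2 to 49.5 in KO (0.08, SE 0.32, adjusted p = 0.933).

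The lower part of glycolysis was well covered for Aldoa, Tpi1 and Pkm. Aldoa, the aldolase that splits fructose bisphosphate (chr7:126795234-126809108, minus strand), had 1004, 849 and 898 in WT and 807, 798 and 740 in KO. It was the only glycolysis member, 1 of 18, whose KO values all lay below WT, beside 11.7% of all genes. Its log2 fold change was -0.23 (SE 0.11, adjusted p = 0.292). Aldoc, the aldolase known from brain, had 3, 1 and 5 reads in WT and 0, 1 and 1 in KO. Tpi1, which interconverts the triose phosphates (chr6:124810586-124814296, minus strand), had 1158, 1021 and 1130 in WT and 813, 1104 and 1135 in KO, where KO replicate 1 alone was low. It had the highest level per length of the glycolysis members, 89.6 to 101 in WT and 73.2 to 103 in KO. Its log2 fold change was -0.13 (SE 0.13, adjusted p = 0.662) and became 0.02 without KO replicate 1.

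Pkm, the pyruvate kinase that ends the pathway (chr9:59656368-59679375, plus strand), had 1393, 1054 and 1275 in WT and 764, 1176 and 1394 in KO. KO replicate 1 was the lowest library and KO replicate 3 about equal to the highest (-0.19, SE 0.17, adjusted p = 0.616); without KO replicate 1 the log2 fold change was 0.06. Pgam1, the phosphoglycerate mutase, had 68.8, 25.1 and 23.1 in WT and 42, 48.6 and 45 in KO, where WT replicate 1 stood above all others (0.39, SE 0.35, adjusted p = 0.619). Pgk1, the kinase of the first ATP-forming step (chrX:106187100-106203699, plus strand), had 115, 80.9 and 86.8 in WT and 142, 110 and 111 in KO. WT replicate 1 overlapped the KO libraries (0.36, SE 0.19, adjusted p = 0.351).

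A pattern shared by many members was the position of KO replicate 1. Among the 30 members with at least 10 reads in some library, KO replicate 1 was the lowest of the 6 libraries for 13, 7 of glycolysis and 6 of the cycle, where it was the lowest for 22.2% of all such genes. WT replicate 1 was the highest for 10, and that share was not computed over all genes. Without KO replicate 1 the median log2 fold change of the glycolysis members was -0.03 over the same genes, and 0.02 with the filter on low values applied anew. Without WT replicate 2, the lowest WT library for many cycle members, the cycle median was -0.18. The same library, KO replicate 1, had the lowest sum of oocyte markers; the part of this in the members' values was not tested. Normalized counts and CPM are relative within a library, so in pools of oocytes they show neither the number of cells nor the RNA per cell.

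Shares of isozymes within a library do not depend on its scaling. Shares were taken from reads per transcript length over 14 family members. Slc2a1 made up 97.9% ± 1.80 (SD, n = 3) of both glucose transporters in WT and 99.2% ± 0.228 (SD, n = 3) in KO. Aldoa held at least 99.7% of both aldolases in every library, and Idh1 at least 96.7% of both NADP-dependent isocitrate dehydrogenases. The malate dehydrogenases were nearly even, with Mdh1 at 42.4%, 43.3% and 42% in WT and at 44.7%, 42.3% and 46% in KO. Me1 held 72.7% to 79.6% of both malic enzymes. Suclg2, the GDP-forming subunit, held 8.84% to 9.94% of the beta subunits in WT and 8.61% to 13.7% in KO.

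Within phosphofructokinase the muscle subunit took a larger share and the liver subunit a smaller one in every KO library than in every WT library. Pfkm had 28.7%, 33.5% and 34.3% in WT and 37.3%, 46% and 35.7% in KO. Pfkl had 30.1%, 25.9% and 24.2% in WT and 12.6%, 23.9% and 22.1% in KO. For both shares the two-sided exact permutation test gave p = 0.1, the smallest that 3 against 3 libraries can give, and 0.525 after adjustment over the 14 shares. Pfkp held 40.6% to 41.5% in WT and 30.2% to 50.1% in KO. In the NAD-dependent isocitrate dehydrogenase the catalytic Idh3a had 46.4% to 52.5% in WT and 50.6% to 56.5% in KO, and Idh3g had 41.7% to 47.1% and 37.4% to 42.9%. Idh3b held 5.82% to 6.77% throughout. Hk1 held 0% to 32.3% of both hexokinases and Pfkfb2 8.46% to 41.7% of its pair, both on few reads. No share had an adjusted p below 0.525.

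**Figure D4:**
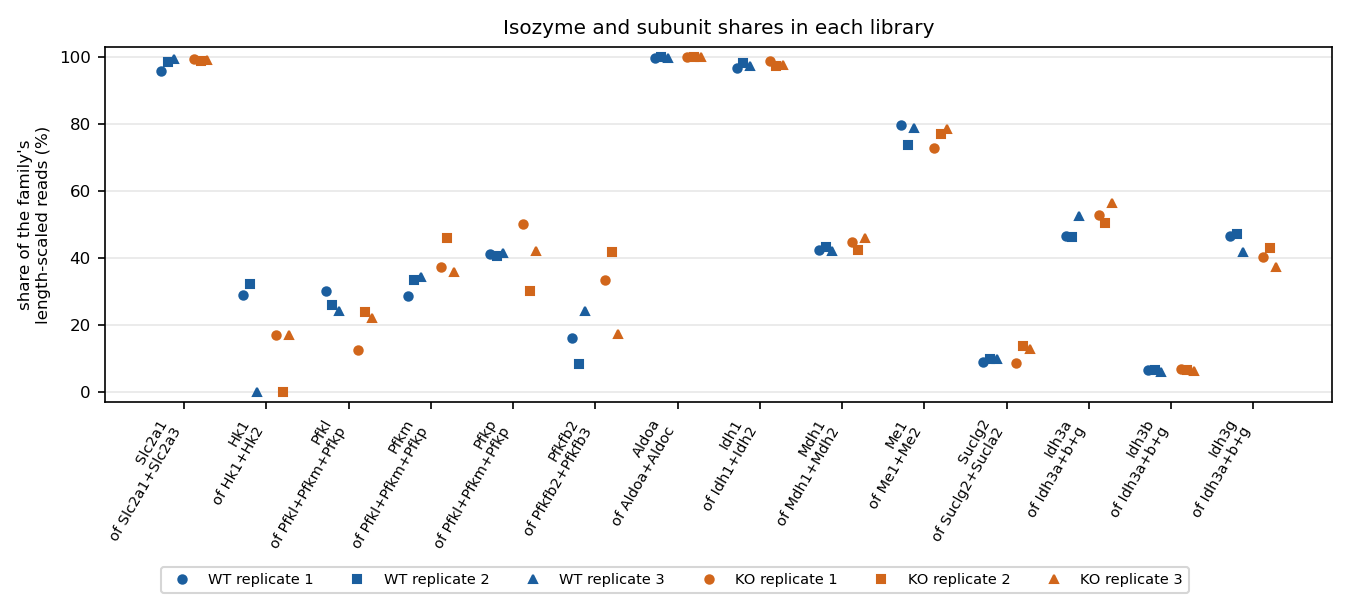
Share (%) of each isozyme or subunit in the length-scaled reads of its family, in each of the 6 libraries, WT in blue and KO in orange. Slc2a1, Aldoa and Idh1 take nearly all of their families in every library, and Pfkl and Pfkm are the shares whose groups separate.

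For 9 members, reads that fit the transcript could also fit another annotated gene, which for Pfkfb2 overlaps it at the same locus. At least 20% of their windows of 75 bases were shared, with up to 1 mismatch, with another annotated gene: 7 members of glycolysis (Gapdh, Eno1, Pgk1, Pkm, Pgam1, Gpi1 and Pfkfb2) and 2 of the cycle (Me1 and Suclg2). Gapdh and Eno1 and the copies in this and the next paragraphs were named after their values were seen. Gapdh, the glyceraldehyde phosphate dehydrogenase (chr6:125161715-125166467, minus strand), shared 81.5% of its windows with 150 annotated genes, 60 of which were in the table. Eno1, the main enolase (chr4:150236721-150248879, plus strand), shared 82.3% with Eno1b, the pseudogene Gm4735 and others. The sequences below show how close these copies are, as coding stretches of 75 bases, 5′ to 3′. Gapdh bases 251 to 325 and Gm7336 bases 61 to 135 of the transcript are identical, and Eno1 bases 1051 to 1125 and Gm4735 bases 653 to 727 differ by T74C, counted from the first base shown and given in capitals.
Gapdh: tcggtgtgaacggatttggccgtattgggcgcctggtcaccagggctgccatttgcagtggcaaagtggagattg
Gm7336: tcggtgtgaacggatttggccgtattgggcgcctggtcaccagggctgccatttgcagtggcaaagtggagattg
Eno1: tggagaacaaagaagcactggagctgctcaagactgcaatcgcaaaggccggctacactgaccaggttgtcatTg
Gm4735: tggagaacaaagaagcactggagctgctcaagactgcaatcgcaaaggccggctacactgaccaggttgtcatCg

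Gm7336, the processed pseudogene with the most reads among the Gapdh copies, lies at chr7:51746647-51747878. Gapdh had 147, 91.1 and 98.8 in WT and 66.2, 117 and 120 in KO (log2 fold change -0.17, SE 0.24, limma adjusted p = 0.776). Gm7336 had 398, 198 and 180 in WT and 106, 235 and 237 in KO (-0.42, SE 0.29, adjusted p = 0.497). Both rows were highest in WT replicate 1 and lowest in KO replicate 1, and the groups overlapped in both. How reads that fit several loci were counted is unknown, so the Gapdh row may not give the level of Gapdh. The level per length of this row, 6.74 to 14.5, entered the medians and ranks above as counted.

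Eno1 had 208, 158 and 213 in WT and 108, 184 and 176 in KO (-0.33, SE 0.20, adjusted p = 0.412). Eno1b, an intronless enolase gene, had 900, 692 and 959 in WT and 526, 771 and 790 in KO (-0.30, SE 0.16, adjusted p = 0.337). Gm4735, a processed pseudogene (chr2:80837141-80838442, plus strand), had 116, 89.3 and 66.5 in WT and 17.9, 24.3 and 34.2 in KO. Every KO library was below every WT library, with a log2 fold change of -1.80 (SE 0.29, limma adjusted p = 0.00487, edgeR adjusted p = 0.0051). This was the only row among the members and the copies tested that passed the threshold, and it stayed under it without any 1 library, with an adjusted p of at most 0.043. Whether the fold change of Gm4735 differs from that of Eno1 was not tested.

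Copies of Me1, Pkm, Gpi1 and Suclg2 were lowest in KO replicate 1 as well, whereas the low-count Gapdh copies Gm10359 and Gm12671 were highest there. Me1 shared 42.6% of its windows, and its pseudogene Gm7049 (chr13:62813076-62814787) had 1215, 962 and 1225 in WT and 658, 942 and 950 in KO (-0.43, SE 0.14, adjusted p = 0.119). Its KO values all lay below WT, unlike those of Me1. Gm6560, a copy of Pkm, had 221, 177 and 190 in WT and 69.3, 162 and 195 in KO. Gm1840, a copy of Gpi1, had 151 to 185 in WT and 107 to 147 in KO, also without overlap. Gm15163, a copy of Suclg2, had 62.3 to 81 in WT and 37.8 to 75.5 in KO.

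Pgk1 had 2 such copies, Gm5537 and Pgk1-rs7, with 82.8 to 116 and 73.5 to 103 in WT and 69.3 to 93 and 62 to 82.4 in KO. With the copies' values added, the log2 fold change of Pgk1 went from 0.36 to -0.03, and no member was called. Adding may count a read more than once: of 26 pairs of genes with identical transcripts and at least 20 reads, 12 had identical counts in all 6 libraries.

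**Figure D5:**
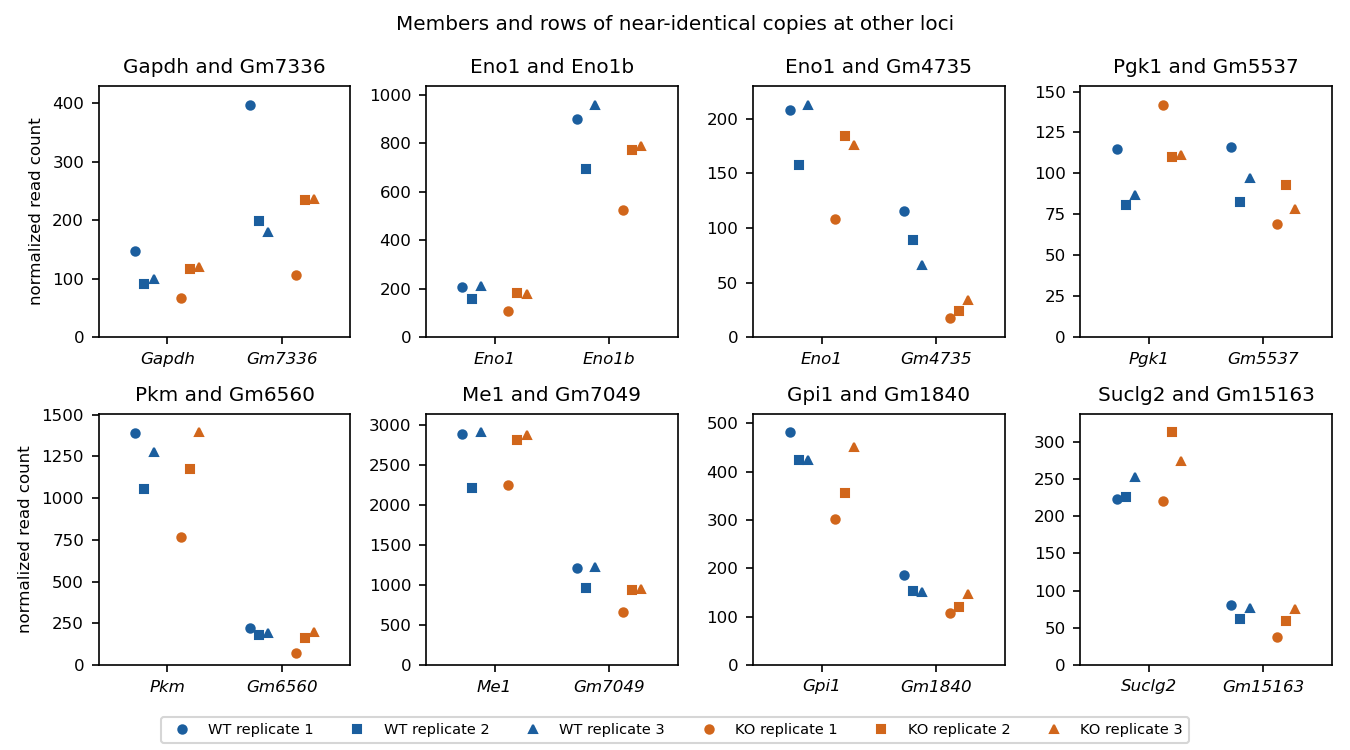
Normalized read count (y axis, from 0) of members and of the rows of near-identical copies at other loci, in each of the 6 libraries, WT in blue and KO in orange. Gm4735 is the copy whose KO points, 17.9 to 34.2, lie far below its WT points, 66.5 to 116.

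Other genes of these pathways were read from the same fit. Of 35 listed genes of the upper and side branches of glycolysis and gluconeogenesis, 21 were tested and 1 was called higher, beside 1.87% of all genes. This was Gpd2, the mitochondrial glycerol phosphate dehydrogenase, with 81, 118 and 77.6 in WT and 114, 229 and 226 in KO (log2 fold change 0.99, SE 0.25, adjusted p = 0.0379). KO replicate 1 overlapped WT, and Gpd2 was no longer called when WT replicate 1 (limma adjusted p = 0.112), 2 (0.0504) or 3 (0.16) or KO replicate 2 (0.137) or 3 (0.125) was left out. None was called among the 20 tested of other cycle and pyruvate enzymes, the 12 of the pentose phosphate pathway, the 8 of the malate-aspartate and citrate shuttles and the 12 of regulators. Their unadjusted limma p was under 0.05 for 3, 1, 0 and 3 genes, and their median log2 fold changes were 0.13, 0.07, -0.03 and 0.23.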

How the data were processed

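Per the labels' protocols, cDNA of 5 pooled GV oocytes was made by Smart-Seq2, and libraries were built with Nextera XT, which keeps neither strand nor molecular identifiers, and read as pairs of 75 bases. The submitters' processing notes name cutadapt, FastQC, STAR, DESeq, DESeq2 and the builds GRCm38 and mm10; the sources used here give neither their versions nor the annotation nor the treatment of multiply mapped reads. The authors deposited a normalized signal, read counts divided by a size factor, per the file headers. Dividing by the value of 1 read (0.899 to 1.11) gave whole reads within 0.1 for 100% of values.

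The members and lists were chosen with earlier results of these data known. The test was limma 3.58.1 (R 4.3.3) on log2(value + 1), which understates changes of low genes, over the 18762 genes that reached 1 in 3 or more of the 6 libraries, adjusted by the Benjamini-Hochberg method over all of them. edgeR 4.0.16 and DESeq2 1.42.0 were run on the recovered reads, and edgeR called 789 of 13078 genes. Levels per length used the main GENCODE M21 transcript, which may not be the authors' annotation. Exact permutation tests used scipy 1.17.1. Values in every library are given for the 4 members of smallest p, the 3 of highest level and those with fewer than 10 reads in each group of members, by rule; other members were added for completeness. Positions run from the deposited start to 1 base short of the deposited end, which lay 1 base past GENCODE in 95.5% of matched genes. No pairing was used, since no label says that a replicate number marks a shared mouse, litter or day. Same-numbered libraries deviated with correlations of -0.077, -0.018 and -0.036, which with so few libraries cannot show that pairing is absent. Scripts were tested on simulated data.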

Additional observations from a re-analysis of the deposited data

How the results depend on the processing

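No member was called in any of 22 other settings, but members with few reads were not tested in all of them. The smallest adjusted p in any of these settings was 0.128 for glycolysis (Gpi1) and 0.0527 for the cycle (Mdh2 with DESeq2). Leaving out each library in turn moved the median log2 fold change from -0.23 to 0.02 for glycolysis (highest without KO replicate 1, where it was -0.03 over the genes of the 6-library filter and 0.02 with the filter applied anew) and from -0.18 to 0.06 for the cycle (lowest without WT replicate 2). Among the members given by rule and Gapdh, sign changes of log2 fold changes were seen for Pgk1 with the copies added (-0.03, a setting chosen after seeing the data) and, on leaving out libraries, for Tpi1 (-0.22 to 0.02), Pkm (-0.38 to 0.06), Gapdh (-0.32 to 0.11), Me1 (-0.14 to 0.10) and Idh2 (-0.70 to 0.07), each of which turned positive without KO replicate 1, and Gapdh, Me1 and Idh2 also without WT replicate 1. Over all settings the ranges of Slc2a1 (-0.14 to 0.29), Hk2 (-0.01 to 0.32), Pfkp (-0.22 to 0.02), Pfkfb3 (-0.25 to 0.28), Idh1 (-0.17 to 0.33), Idh3a (-0.15 to 0.05) and Pcx (-0.33 to 0.38) also held both signs. None of these had been called, and the cause was not tested. Over all genes, leaving out a library gave 39 to 459 genes higher and 30 to 430 lower, beside 351 and 264; fewer samples were then fitted. DESeq2 called 401 lower, and the fit with the replicate number as a block, which shares only a number between libraries, called 246 higher and 175 lower and 0 members. The share of calls that were higher was 57.1%, and 46.9% with trends on GC content and length removed. The 1 call among other pathway genes, Gpd2, went to 0 without WT replicate 1, 2 or 3 or KO replicate 2 or 3, and ranged from 0 to 1. Members with fewer than 10 reads are limited by depth, and their intervals held differences of over 2-fold.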

Other observations

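Per transcript length, the most abundant gene of the pathway lists was not a member. Bpgm, the bisphosphoglycerate mutase that red blood cells use to regulate haemoglobin, had 1539, 1415 and 1698 CPM per kilobase of transcript in WT and 1190, 1557 and 1512 in KO, where Mdh2, the highest member, had 116 to 168. Its groups overlapped (log2 fold change of the normalized count -0.19, SE 0.13, limma adjusted p = 0.458), and KO replicate 1 was the lowest library. G6pdx, the entry enzyme of the pentose phosphate pathway, had 181 to 254, and Sdhd, a membrane anchor of succinate dehydrogenase, had 282 to 327. These genes were chosen after their values were seen, and the sharing of their sequence with other loci was not tested.

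Among the 12 regulators tested, 10 had a log2 fold change above 0 and 2 below, where 51.3% of all genes tested were below 0. None was called. The regulators named next were chosen after their values were seen. Hif1a, a transcription factor subunit of the hypoxia response, had normalized counts of 581, 594 and 546 in WT and 854, 659 and 669 in KO, with every KO library above every WT library (log2 fold change 0.33, SE 0.12, limma adjusted p = 0.157). Txnip, which restrains glucose uptake, had 2426, 2615 and 3079 in WT and 3043, 3275 and 3370 in KO, where 1 KO library lay below the highest WT library (0.26, SE 0.11, adjusted p = 0.213).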
